A study of Mus with 18 samples.

Results

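The CC chemokine genes Ccl2, Ccl3, Ccl4, Ccl5, Ccl6, Ccl7, Ccl9, Ccl12 and Ccl20 and the CX3C chemokine gene Cx3cl1 were followed in mouse lens epithelial cells (LECs) after a model of cataract surgery. These 10 genes were taken by their Ensembl gene IDs from the 55416 IDs of the deposited count tables. The choice was made with earlier results of these data known. RNA was sequenced from lens capsules with their attached LECs, collected at the time the fiber cell mass was removed (0 h) or 6 h post cataract surgery (6 h PCS). Each of the 6 groups held 3 libraries, and each library pooled 5 capsules from mice of both sexes, 3 to 5 months old per the study's methods and labelled C57BL/6.

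The groups were wild type (WT), Egr1KO and FosBcKO capsules, each at 0 h and at 6 h PCS. Egr1KO mice carried a germline null allele of the transcription factor Egr1, made by a neomycin cassette, so every cell of the animal lacked it. FosBcKO mice carried floxed alleles of the AP-1 subunit gene Fosb that were deleted by MLR10-cre, a transgene driven by a modified αA-crystallin promoter, so the deletion was limited to cells of the lens. Per the series' design text, the eyes of a mouse were operated on 6 h apart and both capsules were then harvested, but the pools of the 2 times are not matched by number in the labels. The tables pair no gene ID with a name, so the knocked-out genes, the chemokine receptors and the markers of lens cells and leukocytes were not analysed here, and the genotypes are given as the libraries were labelled. In bulk RNA of this kind, a change in the number of cells of a type and a change in RNA per cell cannot be told apart.

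Chemokines are small secreted proteins that guide leukocytes along concentration gradients by binding receptors coupled to G proteins. Ccl2, Ccl7 and Ccl12 bind Ccr2, the main receptor of inflammatory monocytes. Ccl3, Ccl4 and Ccl5 are inflammatory chemokines that attract monocytes and T cells, and Ccl6 and Ccl9 are rodent ligands of Ccr1. Ccl20 binds Ccr6, and Cx3cl1 (fractalkine), which is made as a membrane protein and can be shed, binds Cx3cr1. In the RefSeq annotation, matched by symbol for 10 of 10 genes, Ccl2 and Ccl7 were direct neighbours on chromosome 11, with Ccl12 next but 1 after Ccl7. Ccl5, Ccl9, Ccl6, Ccl3 and Ccl4 followed each other in that order further along the same chromosome. Cx3cl1 lay between Ccl22 and Ccl17 on chromosome 8, and Ccl20 was on chromosome 1.

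The libraries held between 9609295 and 13871592 counts assigned to genes (median 10549904), and levels are given as CPM, the count per 1000000 gene counts of the library. At this depth 3 counts, the limit that a count of 0 allows, corresponded to 0.216 to 0.312 CPM. Intervals and limits drawn from counts cover counting error only. The share of all tallied read pairs that the counting assigned to no annotated feature was 8.03% to 20.9% in the 0 h libraries. It was 20.0% to 30.5% in the 6 h libraries, and its part in the changes with time was not tested. Of the 10 genes, Ccl2, Ccl7, Ccl6 and Cx3cl1 had counts in all 18 libraries, 5 had counts in some, and Ccl20 had none in any.

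Ccl2 and Ccl7, which recruit monocytes, rose by 6 h PCS in WT and in Egr1KO capsules, and Ccl7 rose by the larger fitted factor in both. Ccl2 (ENSMUSG00000035385) was already expressed at 0 h, with at least 1221 counts in every library of either time. In WT its level at 0 h was 190.6, 148 and 186 CPM, and at 6 h PCS it was 471, 624 and 261 CPM. In Egr1KO it was 231, 128 and 127 CPM at 0 h against 291, 537 and 578 CPM at 6 h PCS. In both genotypes every 6 h library lay above every 0 h library. In FosBcKO, Ccl2 was 126, 148 and 276 CPM at 0 h and 243, 586 and 211 CPM at 6 h PCS, and here the groups overlapped, because the third 0 h library was above the first 6 h library and the third.

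Mean Ccl2 levels went from 175 ± 23.2 CPM to 452 ± 182 CPM in WT, from 162 ± 59.6 to 469 ± 155 CPM in Egr1KO, and from 183 ± 80.9 to 347 ± 208 CPM in FosBcKO (SD, n = 3 each). A gene was called differentially expressed (a DEG) when edgeR's quasi-likelihood test gave a false discovery rate (FDR) of at most 0.05 over all genes tested and the change was over 2-fold. Such p-values measure the spread between these pooled libraries. Ccl2 was a DEG in WT (log2 fold change 1.29, SE 0.33, FDR = 0.0252) and in Egr1KO (log2 fold change 1.58, SE 0.32, FDR = 0.0150). In FosBcKO its log2 fold change was 0.94 (SE 0.52, FDR = 0.239), which was not past the threshold.

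The Ccl2 call depended on single libraries. In WT it was lost without any one of the 0 h libraries and without the first or second 6 h library, with FDR values of 0.0554 to 0.0850 in those 5 fits. In Egr1KO it was lost without replicate 2 or replicate 3 of either time, with FDR values of 0.0579 to 0.0736 in those 4 fits.

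**Figure D1:**
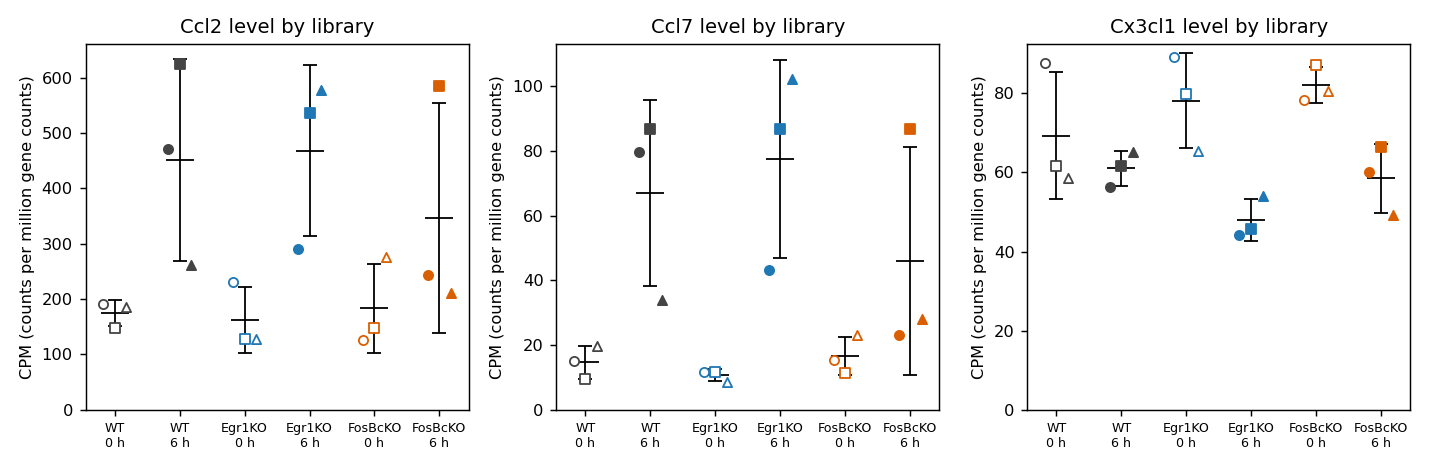
Levels of Ccl2, Ccl7 and Cx3cl1 in CPM (y axes, from 0) for the 6 groups (x axes), with 1 point per library (circle, square and triangle for replicates 1, 2 and 3; open at 0 h, filled at 6 h) and the mean ± SD of 3 libraries in black. The 6 h points of Ccl2 and Ccl7 lie above all 0 h points in WT and Egr1KO, while those of Cx3cl1 lie below all 0 h points in Egr1KO and FosBcKO.

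Ccl7 (ENSMUSG00000035373) is a monocyte chemoattractant of the same receptor. In WT its level was 15.0, 9.42 and 19.7 CPM at 0 h and 79.7, 86.9 and 33.9 CPM at 6 h PCS. In Egr1KO it was 11.7, 11.6 and 8.53 CPM at 0 h and 43.3, 86.7 and 102 CPM at 6 h PCS. In FosBcKO it was 15.4, 11.3 and 23.1 CPM at 0 h and 23.2, 86.7 and 28.2 CPM at 6 h PCS. No 6 h library fell within the 0 h range in any genotype, although in FosBcKO the lowest 6 h value (23.18 CPM) was barely above the highest 0 h value (23.08 CPM).

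Ccl7 was a DEG in WT (log2 fold change 2.11, SE 0.42, FDR = 0.0112), a 4.32-fold rise. In Egr1KO the rise was 7.55-fold (log2 fold change 2.92, SE 0.32, FDR = 0.00197). Both calls held without any 1 of the 6 libraries of the fit, with log2 fold changes of 1.84 to 2.46 in WT and 2.62 to 3.17 in Egr1KO. In FosBcKO the log2 fold change was 1.51 (SE 0.61) and did not pass (FDR = 0.122), although edgeR's exact test on the same libraries gave an FDR of 0.0499. Leaving out the second FosBcKO 6 h library lowered the log2 fold change to 0.52 for Ccl7 and to 0.20 for Ccl2. Without a filter on low counts Ccl7 was not called in WT either (FDR = 0.0726), and Ccl2 was not called in Egr1KO (FDR = 0.0681).

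Ccl12 (ENSMUSG00000035352), the other Ccr2 ligand, was near the detection limit and passed the filter on low counts in none of the 3 tests of time. No WT library held a count at 0 h, and the 6 h libraries held 1, 2 and 6 counts, so that its pooled level was at least 3.09-fold higher at 6 h, with 3 counts over the group as the floor, and at least 1.56-fold without the third 6 h library. In Egr1KO the 0 h libraries held 7, 0 and 0 counts and the 6 h libraries 2, 1 and 9, which overlap. In FosBcKO the counts were 4, 0 and 5 at 0 h and 8, 16 and 24 at 6 h PCS, a pooled ratio of 4.77 (exact 95% interval 2.31 to 11.1). The FosBcKO 6 h libraries thus held the 2 highest Ccl12 counts of the series. Their difference from WT at 6 h had an FDR of 0.314 by edgeR's exact test without a filter on low counts.

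Ccl3, Ccl4 and Ccl5 were almost undetected at 0 h and detected in nearly all libraries at 6 h PCS. Ccl3 (MIP-1α, ENSMUSG00000000982), a chemoattractant of monocytes and T cells, had counts in 1 of 9 libraries at 0 h and in 9 of 9 at 6 h PCS. Its counts were 0, 0 and 2 in WT at 0 h and 12, 7 and 6 at 6 h PCS. In Egr1KO all 3 libraries were at 0 at 0 h and held 6, 23 and 17 counts at 6 h PCS, and in FosBcKO they went from 0 in all 3 to 11, 36 and 14 counts. No genotype's groups overlapped. The pooled level was 12.9-fold higher in WT (exact 95% interval 3.21 to 112), at least 14.3-fold higher in Egr1KO and at least 18.2-fold higher in FosBcKO. Leaving out single libraries, a check chosen after seeing the data as were those for the other sparse genes, gave at least 5.83-fold in WT without the 0 h library that held 2 counts, at least 8.88-fold in Egr1KO without its first 0 h library and at least 11.2-fold in FosBcKO without its second 6 h library.

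Ccl3 passed the filter in FosBcKO alone among the 3 tests of time, where it was a DEG (FDR = 0.0136). It passed there only through the 6 h libraries, in which it was high, so the call was not independent of the filter. Since its FosBcKO libraries were all at 0 at 0 h, the bound above stands in for the fitted fold change. This call was lost without the second 6 h library of FosBcKO, which held the most counts (FDR = 0.0581).

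Ccl4 (MIP-1β, ENSMUSG00000018930), whose RefSeq gene span overlaps that of Ccl3, had no count in any of the 9 libraries at 0 h. At 6 h PCS the counts were 3, 3 and 11 in WT, 8, 39 and 0 in Egr1KO, and 4, 3 and 8 in FosBcKO. The pooled level was at least 5.84-fold higher in WT, at least 14.6-fold higher in Egr1KO and at least 4.47-fold higher in FosBcKO. The Egr1KO value was carried by the second library, without which the bound was at least 4.15-fold, and the third held no Ccl4 count beside 17 Ccl3 counts. In WT the bound was at least 3.11-fold without the third 6 h library. Ccl4 passed the filter in none of the 3 tests of time.

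Ccl5 (RANTES, ENSMUSG00000035042), which attracts T cells and monocytes, had counts in 5 of 9 libraries at 0 h and in 9 of 9 at 6 h PCS. In WT the counts were 0, 3 and 1 at 0 h against 10, 12 and 7 at 6 h PCS. In Egr1KO they were 0, 2 and 0 against 3, 50 and 24, and in FosBcKO 0, 1 and 1 against 8, 13 and 4. The groups did not overlap in any genotype. The pooled ratio of 6 h to 0 h was 7.47 in WT (exact 95% interval 2.62 to 29.3), 35.9 in Egr1KO (9.61 to 302) and 11.2 in FosBcKO (2.79 to 97.4), and the 3 intervals overlapped. Of the 77 Egr1KO counts at 6 h, 50 were in the second library, and the ratio was 21.0 without it. Without the second Egr1KO library at 0 h, which held both 0 h counts, it was at least 16.2, and without the second WT library at 0 h the WT ratio was 19.4. Ccl5 passed the filter in none of the 3 tests of time.

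The Ccr1 ligands Ccl6 (ENSMUSG00000018927) and Ccl9 (ENSMUSG00000019122), which myeloid cells are known to make, were not tested against each other. Ccl6 had counts in all 18 libraries, and its groups overlapped in every genotype. The counts were 11, 2 and 6 in WT at 0 h and 18, 7 and 8 at 6 h PCS. They were 3, 1 and 22 against 11, 37 and 19 in Egr1KO, and 8, 4 and 17 against 14, 12 and 5 in FosBcKO. Ccl6 was tested in the knockouts, where its log2 fold change was 1.12 in Egr1KO (SE 1.02, FDR = 0.453) and -0.07 in FosBcKO (SE 0.81, FDR = 0.957).

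Ccl9 counts were 6, 0 and 0 in WT at 0 h and 0, 3 and 39 at 6 h PCS, and the groups overlapped, with 39 of the 42 counts at 6 h in the third library. In Egr1KO they were 1, 5 and 0 against 8, 30 and 15, and in FosBcKO 1, 0 and 1 against 25, 20 and 6, without overlap in either knockout. The pooled ratio was 8.24 in Egr1KO (exact 95% interval 3.55 to 23.5) and 22.8 in FosBcKO (6.00 to 193). In WT it was 7.21 (3.05 to 20.8), and 0.779 without the third 6 h library, while the Egr1KO ratio was 33.5 without the second 0 h library. Ccl9 passed the filter in none of the 3 tests of time.

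**Figure D2:**
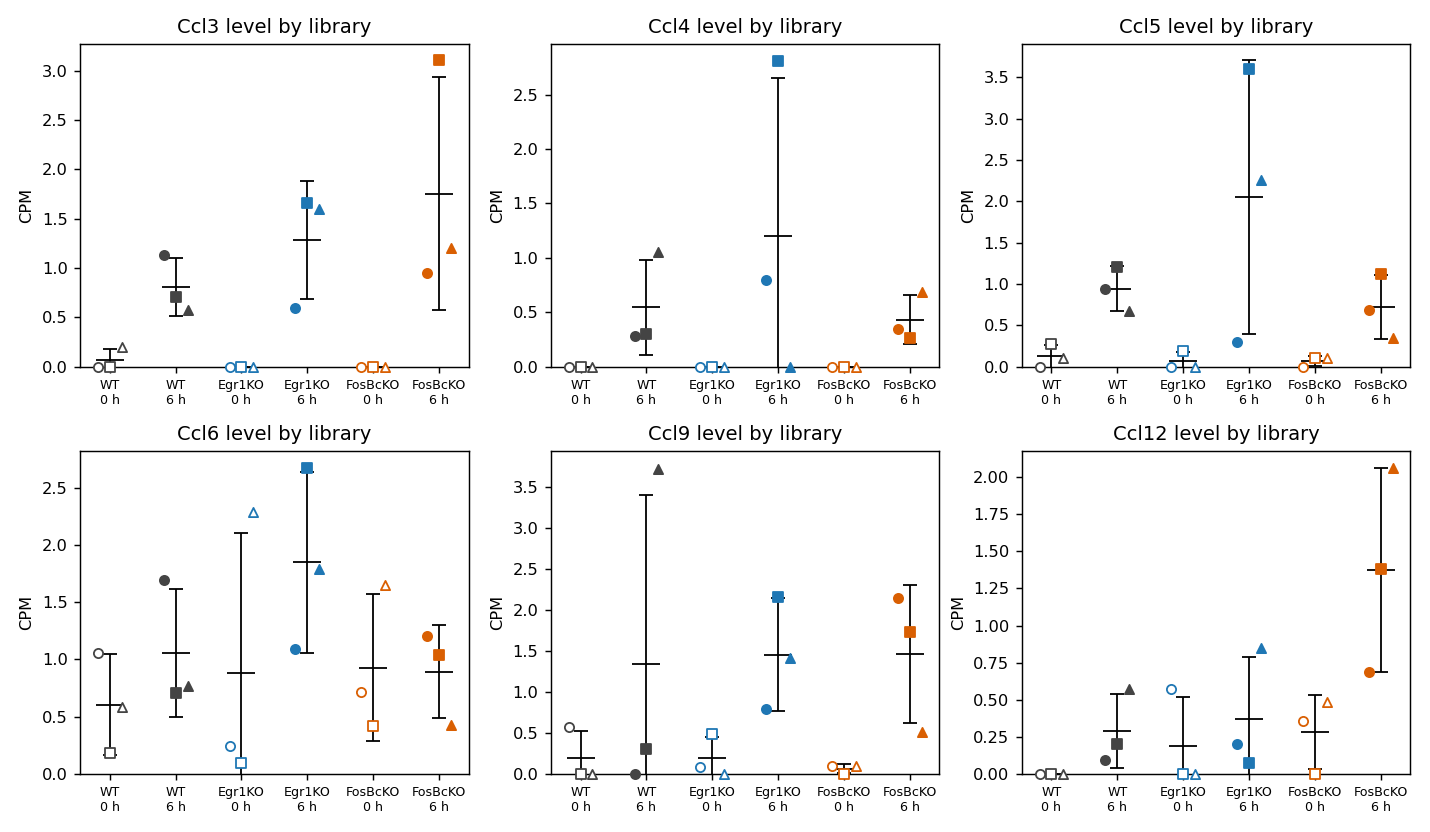
Levels of the 6 sparse chemokines in CPM (y axes, from 0, each panel on its own scale) for the 6 groups (x axes), with points as in the plot of the abundant genes and the mean ± SD of 3 libraries in black (bars cut at 0). Ccl3, Ccl4 and Ccl5 lie at or near 0 in the 0 h libraries, 1 library carries the WT 6 h mean of Ccl9, and the FosBcKO 6 h libraries hold the 2 highest values of Ccl12.

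Ccl20 (ENSMUSG00000026166), the ligand of Ccr6, had 0 counts in all 18 libraries. Its level was therefore not detectable at this depth, and it entered no test.

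Cx3cl1 (ENSMUSG00000031778), the membrane-bound chemokine, was the only one of the 10 genes whose pooled level was lower at 6 h PCS in each of the 3 genotypes, at 0.883, 0.605 and 0.715 times the 0 h level in WT, Egr1KO and FosBcKO. The lower level in WT rested on the first 0 h library, without which the WT ratio was 1.02, a check chosen after seeing the data. In WT it was 87.7, 61.5 and 58.6 CPM at 0 h and 56.4, 61.6 and 65.2 CPM at 6 h PCS, with overlapping groups. In Egr1KO it was 89.1, 79.97 and 65.4 CPM at 0 h against 44.1, 45.6 and 54.1 CPM at 6 h PCS. In FosBcKO it was 78.4, 87.2 and 80.7 CPM against 60.2, 66.4 and 49.2 CPM. The 6 h libraries of both knockouts lay below all of their 0 h libraries, as did those of 14.7% of genes with a count in Egr1KO and 10.5% in FosBcKO.

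The log2 fold change of Cx3cl1 was -0.29 in WT (SE 0.18, FDR = 0.260), -0.64 in Egr1KO (SE 0.17, FDR = 0.0308) and -0.48 in FosBcKO (SE 0.17, FDR = 0.0618). The Egr1KO value passed the FDR, as did 21.2% of the genes tested there, but not the 2-fold minimum, so Cx3cl1 was a DEG in none of the genotypes. Leaving out 1 library at a time moved the Egr1KO FDR between 0.0228 and 0.121. With a replicate block the FDR of Cx3cl1 was 0.0519 in Egr1KO and 0.0250 in FosBcKO. Which knockout passed the FDR thus depended on whether the replicate number was fitted, and the labels do not say that equal numbers mark the same mice.

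**Figure D3:**
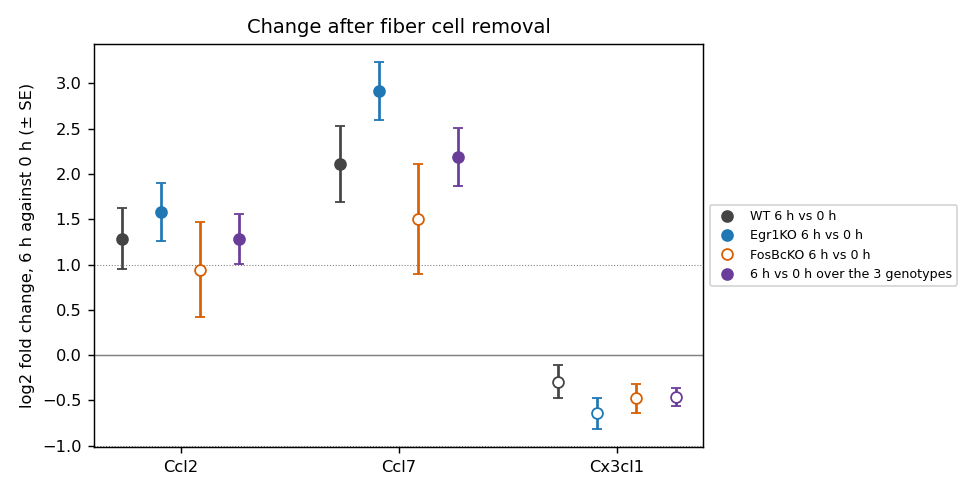
Log2 fold change ± SE (y axis) of Ccl2, Ccl7 and Cx3cl1 (x axis) at 6 h against 0 h in each genotype and over the 3 genotypes, filled where the gene was a DEG and open where it was not. The dotted lines mark a 2-fold rise and a 2-fold fall. The change of Ccl7 exceeds that of Ccl2 in every comparison, and the values of Cx3cl1 lie between -0.64 and -0.29.

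By count, 3 of the 10 genes passed the filter on low counts in WT and 2 were DEGs, both higher, where 17.1% of the 15440 genes tested were DEGs (13.5% higher). In Egr1KO 4 passed the filter and 2 were DEGs, both higher, against 12% of 14586 genes (9.28% higher). In FosBcKO 5 passed and 1 was a DEG, higher, against 13.1% of 15475 genes (11.2% higher). The median log2 fold change of the genes that passed was 1.29 in WT, 1.35 in Egr1KO and 0.94 in FosBcKO, while that of all genes tested was -0.02, 0.00 and 0.05. A sparse gene passes this filter through the group in which it is high, so these medians describe the genes tested and not all 10. The DEG of FosBcKO was Ccl3, which passed in that way. Its call was not independent of the filter and is not to be read against the share of all genes.

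Without regard to a test, every 6 h library lay above every 0 h library for 6 of the 9 chemokines with a count in WT (Ccl2, Ccl7, Ccl12, Ccl3, Ccl4 and Ccl5), where 18.7% of genes with a count did so. The same held for 5 in Egr1KO (Ccl2, Ccl7, Ccl3, Ccl5 and Ccl9; 12.9% of genes) and for 6 in FosBcKO (Ccl7, Ccl12, Ccl3, Ccl4, Ccl5 and Ccl9; 14.8% of genes). Across all genotypes, the 9 libraries at 6 h lay above the 9 at 0 h for Ccl7, Ccl3 and Ccl5, as they did for 2.43% of genes with a count. Ccl12, Ccl3, Ccl4, Ccl5 and Ccl9 were at or near 0 counts at 0 h, so their separation can rest on few counts.

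To use all 18 libraries, the mean change over the 3 genotypes was also tested, a comparison chosen after seeing the data. Of the 10 genes, 7 passed the filter and 5 were DEGs, all higher, beside 22.5% of the 17469 genes tested (19.3% higher). Ccl3, Ccl5 and Ccl9 passed the filter through their 6 h libraries, so their calls, and a count that includes them, were not independent of the filter and are not to be read against that share. Ccl2 rose by a log2 fold change of 1.28 (SE 0.28, FDR = 0.00142) and Ccl7 by 2.19 (SE 0.32, FDR = 8.70e-05). Ccl5 rose by 3.62 (SE 0.72, FDR = 0.000463) and Ccl9 by 3.28 (SE 0.87, FDR = 0.00451). Ccl3 passed with an FDR of 6.17e-05, from 2 counts in all at 0 h to 132 at 6 h PCS. Ccl6 had a log2 fold change of 0.58 (SE 0.55, FDR = 0.391). Cx3cl1, at -0.46 (SE 0.10), passed the FDR (0.000949), as did 52.3% of genes, but not the 2-fold minimum.

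These 5 calls held in each of the 18 fits that left out 1 library, in which 5 to 8 of the 10 genes were called. The fitted Ccl9 change was the least even of them, with log2 fold changes of 2.26 to 4.65 and FDR values of 0.00176 to 0.0433. The added calls were of Ccl4 and Ccl12, which can pass the filter when the smallest group is smaller, and of Ccl6 without the third Egr1KO library at 0 h (FDR = 0.0448).

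Each knockout was set against WT separately at 0 h and at 6 h PCS with edgeR's exact test. At 0 h, none of the 3 chemokines tested was a DEG in either knockout, where 0.41% of genes tested were DEGs in Egr1KO and 0.295% in FosBcKO. Ccl2 differed from WT by a log2 fold change of -0.09 in Egr1KO (SE 0.28, FDR = 1.00) and 0.08 in FosBcKO (SE 0.36, FDR = 1.00). Ccl7 differed by -0.44 (SE 0.26, FDR = 0.951) and 0.19 (SE 0.32, FDR = 1.00), and Cx3cl1 by 0.20 (SE 0.16, FDR = 0.983) and 0.24 (SE 0.15, FDR = 1.00).

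At 6 h PCS, none of the 7 chemokines tested was a DEG in either knockout, where 0.736% of genes tested were DEGs in Egr1KO and 5.41% in FosBcKO. Ccl2 differed from WT by a log2 fold change of 0.23 in Egr1KO (SE 0.40, FDR = 0.936) and -0.24 in FosBcKO (SE 0.50, FDR = 0.914). Ccl7 differed by 0.39 (SE 0.43, FDR = 0.870) and -0.38 (SE 0.58, FDR = 0.861). Cx3cl1 differed by -0.13 (SE 0.18, FDR = 0.942) and 0.07 (SE 0.19, FDR = 0.955).

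Among the sparse genes at 6 h PCS, Ccl3 was 1.83-fold WT in Egr1KO (FDR = 0.771) and 2.42-fold WT in FosBcKO (FDR = 0.431). Ccl5 was 2.45-fold WT in Egr1KO (FDR = 0.702) and 0.84-fold in FosBcKO (FDR = 0.955). Ccl6 was 1.998-fold WT in Egr1KO (FDR = 0.706) and 0.913-fold in FosBcKO (FDR = 0.987), and Ccl9 was 1.31-fold (FDR = 0.976) and 1.26-fold (FDR = 0.971). Ccl12 did not pass the filter at 6 h. Without a filter its FosBcKO against WT difference had an FDR of 0.314 (unadjusted p = 0.0164 by edgeR's exact test), and it was called only when the first FosBcKO 6 h library was left out. A p that misses the threshold does not show that the genotypes were alike.

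An interaction of genotype and time, fitted over all 18 libraries with edgeR's quasi-likelihood test, asked if the change by 6 h PCS was unequal in knockout and WT. None of the 7 chemokines tested passed, and 0% of all genes did (0 of 17469 in either knockout). At an unadjusted p under 0.05 the count was 1141 genes for Egr1KO and 1171 for FosBcKO, none of the 7 among them, and DESeq2 called 2 and 25 genes, none of them a chemokine of this group. The difference in log2 change was 0.27 for Ccl2 in Egr1KO (SE 0.66, FDR = 0.95) and -0.40 in FosBcKO (SE 0.66, FDR = 0.949). For Ccl7 it was 0.78 (SE 0.77, FDR = 0.863) and -0.66 (SE 0.77, FDR = 0.910). For Cx3cl1 it was -0.37 (SE 0.24, FDR = 0.824) and -0.24 (SE 0.24, FDR = 0.886). The sparse genes had larger standard errors. For Ccl3 it was 3.52 (SE 1.99, FDR = 0.794) and 3.88 (SE 2.04, FDR = 0.776), although neither knockout held a Ccl3 count at 0 h. For Ccl5 it was 2.11 (SE 1.78, FDR = 0.846) and 0.50 (SE 1.58, FDR = 0.978). For Ccl6 it was 0.36 (SE 1.37, FDR = 0.970) and -0.84 (SE 1.36, FDR = 0.947). For Ccl9 it was 0.37 (SE 2.08, FDR = 0.978) and 1.67 (SE 2.14, FDR = 0.924). Without a filter on low counts, the quasi-likelihood test gave Ccl7 an unadjusted p of 0.0104 in Egr1KO and 0.0350 in FosBcKO. The FDR values of Ccl7 in that fit were 0.381 and 0.662, and its log2 differences were 0.82 and -0.67. The FosBcKO changes of Ccl2 and Ccl7 that did not pass on their own were therefore not shown to differ from those of WT.

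Since Ccl7 rose by more than its neighbour Ccl2, the ratio of their counts was compared within each library, a measure chosen after seeing the data that does not depend on library size. There were 12.7, 15.8 and 9.49 Ccl2 counts per Ccl7 count in WT at 0 h and 5.91, 7.19 and 7.69 at 6 h PCS. In Egr1KO the ratio was 19.6, 10.99 and 14.9 at 0 h and 6.73, 6.20 and 5.64 at 6 h PCS. In FosBcKO it was 8.15, 13.1 and 11.9 at 0 h and 10.5, 6.76 and 7.48 at 6 h PCS. The groups were separate in WT and Egr1KO and overlapped in FosBcKO.

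The mean ratio went from 12.6 ± 3.13 to 6.93 ± 0.92 in WT, from 15.2 ± 4.32 to 6.19 ± 0.54 in Egr1KO and from 11.1 ± 2.58 to 8.24 ± 1.97 in FosBcKO (SD, n = 3 each). Over the 3 genotypes it was 1.79-fold lower at 6 h PCS (log2 change -0.84), with p = 0.00075 by a two-sided exact permutation test of time within genotype, whose smallest possible p was 0.00025. The ratio was chosen because Ccl7 had risen by more than Ccl2 in these libraries, so this p is no independent support for that difference. Leaving out each library in turn gave log2 changes of -0.91 to -0.77. The ratio is of counts without a correction for gene length, so its change, and not its level, is comparable.

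**Figure D4:**
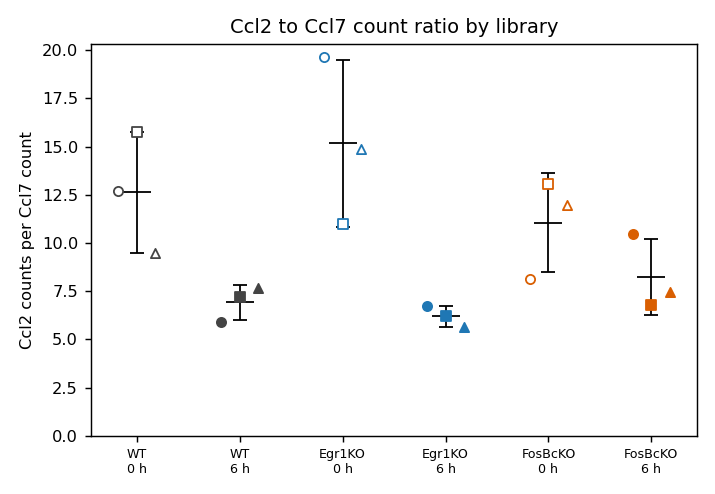
Ccl2 counts per Ccl7 count (y axis, from 0) in each library of the 6 groups (x axis), points and bars as in the plot of levels. The 6 h ratios lie between 5.64 and 7.69 in WT and Egr1KO, below all of their 0 h ratios, while 1 FosBcKO library at 6 h reaches 10.5.

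The level of Ccl7 also followed that of Ccl2 from library to library at 6 h PCS. Over the 9 libraries at 6 h, the Pearson correlation of their log2 CPM was 0.970 (permutation p = 0.000485, 0.00097 adjusted over the 2 times) and Spearman's rho was 0.900 (permutation p = 0.00203, 0.00406 adjusted). Without the 2 libraries farthest from the median of Ccl2 the Pearson correlation was 0.973. Over the 9 libraries at 0 h, r was 0.632 (permutation p = 0.0710) and rho 0.483 (permutation p = 0.194), and r was 0.589 without the 2 farthest libraries. Both genes share each library's total as denominator, and the difference between the times was not tested. The permutations moved libraries freely across the 3 genotypes. How many other genes followed Ccl2 as closely within the 6 h libraries was not counted. At 6 h PCS the same libraries were thus high for both, namely replicates 1 and 2 of WT, replicates 2 and 3 of Egr1KO and replicate 2 of FosBcKO.

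**Figure D5:**
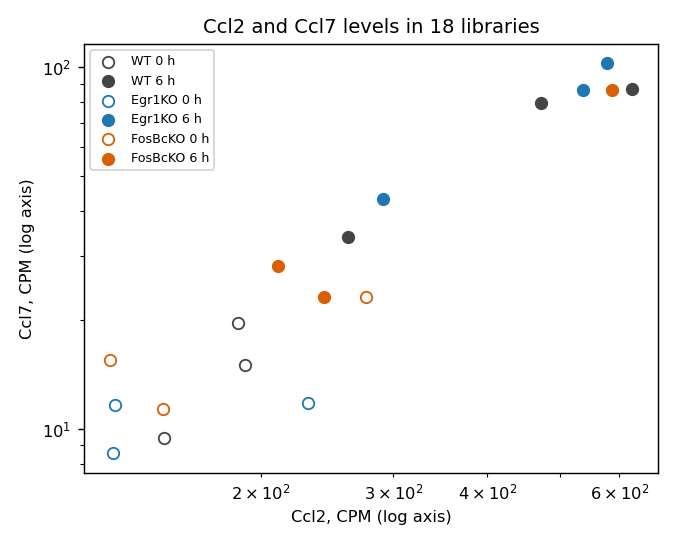
Ccl7 level against Ccl2 level in CPM (both axes logarithmic), with 1 point per library, open at 0 h and filled at 6 h, coloured by genotype. The 9 filled points run along a line (Pearson correlation 0.970), and the highest open point of Ccl7 lies just below the lowest filled one.

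Over all 18 libraries, Ccl7 ranked 2 of 15054 genes in likeness to Ccl2 by the Pearson correlation of log2(CPM + 1), at 0.951. ENSMUSG00000044147 ranked 1 at 0.952 and ENSMUSG00000046062 ranked 3 at 0.937, and the tables give no names for them. Ccl6 ranked 3060 of 15054 at 0.485, and Cx3cl1 had a correlation of -0.475. These values are a description over 18 libraries that include both times, so any gene that changed with time shares part of the likeness. Within the 6 h libraries alone the correlation of Ccl2 with Ccl6 was 0.508 and with Cx3cl1 0.172.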

How the data were processed

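Lens capsule RNA was sequenced after ribosomal depletion as stranded paired-end libraries (SMARTer Stranded Pico v2). Per the labels and the study's methods, the authors used Hisat2 for alignment and HTSeq (union mode) for counting over Ensembl genes. Each library has 1 deposited table of raw counts, and versions of these tools are not given in the sources used here. The submitters' processing notes name GRCm39 and the methods another build, so no coordinates are printed. Gene order came from the RefSeq table, matched by symbol. No sequences were available to print. HTSeq summary lines stayed out of library totals and tests. Multiply aligned reads are dropped by such counting, which lowers counts of genes with related copies.

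Counts were analysed with edgeR 4.0.16 in R 4.3.3 (filterByExpr, TMM, robust dispersions). The quasi-likelihood test compared 6 h with 0 h within each genotype and gave the interactions, and the exact test compared each knockout with WT. A DEG had an FDR of at most 0.05 over all genes tested and a change over 2-fold. Standard errors of exact-test values came from a quasi-likelihood fit of the same libraries. Where a group had no count, the fold is a bound against 3 counts over the pooled group. Exact 95% intervals are conditional (Clopper-Pearson). Permutation tests used Python 3.11.15 and scipy 1.17.1. Alternatives were DESeq2 1.42.0, other size factors, filters, tests, a replicate block and leaving out each library. WT libraries of equal number deviated together (correlations of 0.102 to 0.247, 3 of 3 pairs over 0.1), whereas 1 of 3 pairs did in Egr1KO and 2 of 3 in FosBcKO. The labels do not say that numbers mark the same mice.

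All 10 genes are named with their values; the genes most like Ccl2 were the highest 3 by correlation among genes with a mean of at least 1 CPM. The genes and lists were chosen with earlier results of these data known. Lists of receptors, other chemokines, proteases and cell type markers were not analysed here, since the IDs could not be matched to names.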

Additional observations from a re-analysis of the deposited data

How the results depend on the processing

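The number of the 10 chemokines called at 6 h against 0 h was 2 in WT, 2 in Egr1KO and 1 in FosBcKO. DESeq2, other size factors, the filter of 10 counts in 3 libraries and the replicate block left these counts at 2, 2 and 1. Without a filter on low counts they were 1 in WT (Ccl2), 4 in Egr1KO (Ccl7, Ccl3, Ccl4 and Ccl5) and 2 in FosBcKO (Ccl3 and Ccl9), and edgeR's exact test gave 2 in FosBcKO (Ccl7 and Ccl3). Without a fold minimum Cx3cl1 was added in Egr1KO, for 3 called, and over the 3 genotypes, for 6, and without a filter 7 were called there. Leaving out 1 library gave 1 to 2 called in WT, 1 to 4 in Egr1KO, 0 to 2 in FosBcKO, 0 to 1 for FosBcKO against WT at 6 h (Ccl12), and 5 to 8 over the 3 genotypes. Without the first Egr1KO 6 h library, Ccl3 and Ccl5 were also called there, and without the third FosBcKO 6 h library, Ccl9 was also called there, with more genes passing the filter in each. The other comparisons had 0 called in all fits. Over all genes, Egr1KO against WT at 6 h gave 115 DEGs by the exact test and 0 by the quasi-likelihood test, and FosBcKO against WT at 6 h gave 874 and 437, or 86 with a replicate block. For the interactions DESeq2 called 2 and 25 genes and fits without a filter 264 and 404.

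The sign of 16 log2 values of genes that were not called turned when 1 library was left out; the cause was not tested. For Ccl2 the ranges were -0.43 to 0.076 (Egr1KO against WT at 0 h), -0.073 to 0.58 (at 6 h), -0.37 to 0.30 (FosBcKO against WT at 0 h), -0.96 to 0.092 (at 6 h) and -1.11 to 0.049 (interaction FosBcKO). For Ccl7 it was -0.15 to 0.44 (FosBcKO against WT at 0 h). For Ccl6 they were -0.51 to 0.61 (FosBcKO at 6 h against 0 h), -0.39 to 0.41 (FosBcKO against WT at 6 h) and -0.30 to 2.68 (interaction Egr1KO). For Ccl9 they were -0.19 to 3.34 and -0.25 to 3.25 (Egr1KO and FosBcKO against WT at 6 h), -3.76 to 3.32 and -2.46 to 4.58 (the interactions). For Ccl5 they were -0.52 to 0.083 (FosBcKO against WT at 6 h) and -0.71 to 1.03 (interaction FosBcKO), and for Cx3cl1 -0.10 to 0.19 (FosBcKO against WT at 6 h). The replicate block turned the sign of Ccl6 in FosBcKO with time (0.049) and of Ccl2 in FosBcKO against WT at 0 h (-0.016), and it changed no DEG call of these genes, although Cx3cl1 no longer passed the FDR in Egr1KO (0.0519) and passed it in FosBcKO (0.0250), in each case under 2-fold. In all, 869 of the single-gene alternatives kept direction and call, 34 turned, 12 lost and 4 gained a call. With 3 libraries per group and at most 50 counts in each for the sparse genes, their folds carry wide intervals.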
